A study of Mus musculus with 8 samples.

Results

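The genes described here encode 10 receptor chains for IL-6, IL-10, IL-12, IL-27 and the type I and type II interferons, namely Il6ra, Il6st, Il27ra, Il12rb1, Il10ra, Il10rb, Ifngr1, Ifngr2, Ifnar1 and Ifnar2. They were picked out by gene symbol, with no threshold on a measured value, and are 10 of the 38215 genes in the count table. All 10 were among the 13397 genes that passed the filter on low counts. The study sequenced RNA from FoxP3+ regulatory T cells (Treg) sorted from the bone marrow (BM-Treg, n = 4 libraries) or spleen (SP-Treg, n = 4 libraries) of naïve mice, and the comparison asks how the marrow population differs from its splenic counterpart. Both groups are labelled C57Bl/6. The study's figure legend gives them as 12-week-old FoxP3-GFP reporter mice on that background, in which a fluorescent protein marks cells that transcribe Foxp3. No treatment was given to either group.

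By the labels, BM-Treg replicates 1 to 3 came from female mice in batch 1. BM-Treg replicate 4, like every SP-Treg library, is labelled as from male mice in batch 3. The study's methods say instead that its mice were female unless stated otherwise, so the sex given here rests on the labels. Sex and batch therefore cannot be told apart from each other, and BM-Treg replicate 4 is the only marrow library that shares them with the spleen. The comparison of each chain is accordingly given with its batch 3 value, the log2 fold change that edgeR fitted, with no filter on counts, to BM-Treg replicate 4 against the 4 SP-Treg libraries. The study's methods call the libraries biological replicates, but the labels do not say whether animals were pooled, so that p-values measure the spread between these libraries. The titles of the spleen libraries hold numbers that would overlap if read as ranges of animals, and their meaning is not given. Whether the spleen libraries are independent of each other is therefore not known.

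Total counts per library ran from 12427136 to 21921252, and the 3 libraries of batch 1 were the deepest. Foxp3 was read in every library, at 1270 to 2080 CPM (counts scaled to library size), and the summed CPM of 8 Treg markers overlapped between the tissues, at 7600 to 9030 in BM-Treg and 8340 to 9120 in SP-Treg. Over all 13397 genes, 499 were higher and 673 lower in BM-Treg by the quasi-likelihood test of edgeR after Benjamini-Hochberg adjustment. In bulk RNAseq, fewer cells that carry a receptor and less of its RNA per cell cannot be told apart.

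Cytokine receptors of this group have no enzyme of their own. They bind Janus kinases, and a bound cytokine brings partner chains together so that the kinases activate STAT transcription factors. A chain is often shared: gp130 (Il6st) serves IL-6, IL-27, LIF and other cytokines, the second IL-10 receptor chain (Il10rb) also serves IL-22 and the lambda interferons, and the first IL-12 receptor chain (Il12rb1) also serves IL-23. IL-6 signals mainly through STAT3 and opposes Treg differentiation, IL-10 signals through STAT3 and sustains Treg function, and interferons induce genes of antiviral and antimicrobial defence.

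For 3 of these receptors, reads were divided among transcripts that differ in what protein they can encode, and the junctions where the transcripts part are shown because the shares reported further on turn on them. Ifnar2 is known to be made as a long transmembrane chain and as short soluble forms. The 3 leading Ifnar2 transcripts share the exon at chr16:91393757-91393913 (GRCm38, plus strand). Ifnar2-201, with 513 codons, goes on to the exon at chr16:91399218-91399345. Ifnar2-202, with 247 codons, skips to chr16:91403710-91405366. Ifnar2-203, with 248 codons, reads on into the intron. Small letters are the last 30 bases of the shared exon and capitals are bases that only the named transcript holds at that point. In Ifnar2-202 and Ifnar2-203 the capitals end with the stop codon.
Ifnar2-201: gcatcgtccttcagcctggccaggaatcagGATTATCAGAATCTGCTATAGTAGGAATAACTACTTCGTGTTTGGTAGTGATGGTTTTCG
Ifnar2-202: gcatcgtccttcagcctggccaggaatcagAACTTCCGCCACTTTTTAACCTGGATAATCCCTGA
Ifnar2-203: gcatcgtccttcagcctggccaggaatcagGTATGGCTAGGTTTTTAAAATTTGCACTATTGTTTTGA

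Il10rb-201 (chromosome 16, plus strand) is the full coding transcript with 351 codons. Il10rb-205 uses a donor site 19 bases further on, after which its bases differ from the start of the next exon of Il10rb-201. It is annotated as a target of nonsense-mediated decay, with 52 codons. Il10ra-201 (chromosome 9, minus strand) has 575 codons, and Il10ra-203 skips the second exon, at chr9:45267100-45267220, and is likewise annotated as a decay target, with 85 codons. All sequences and coordinates are from GENCODE M21 on GRCm38, written 5′ to 3′ on the strand of the gene, with the same use of capitals.
Il10rb-201: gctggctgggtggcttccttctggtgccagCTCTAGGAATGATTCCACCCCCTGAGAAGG
Il10rb-205: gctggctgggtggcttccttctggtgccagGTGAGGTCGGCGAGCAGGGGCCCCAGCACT
Il10ra-201: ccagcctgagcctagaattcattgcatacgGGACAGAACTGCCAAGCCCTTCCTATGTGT
Il10ra-203: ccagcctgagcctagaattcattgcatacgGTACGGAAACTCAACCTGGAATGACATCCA

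Across the 10 chains, 3 were higher in BM-Treg (Ifngr1, Il6ra and Il10ra), 1 was lower (Il6st) and 6 did not pass the test at an adjusted p of 0.05. Among all genes tested, 3.72% were called as higher and 5.02% as lower in BM-Treg, which is 8.75% of the genes tested in both directions. The BM-Treg libraries lay wholly above the SP-Treg libraries for 3 chains (Ifngr1, Il10ra and Ifnar1) and wholly below them for 1 (Il6st), which compares with 7.58% and 8.57% of all genes. The median log2 fold change of the chains was 0.19, against -0.01 over all genes, and 7 of 10 were above 0, against 48.6% of all genes. The chains were thus divided in direction.

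**Figure D1:**
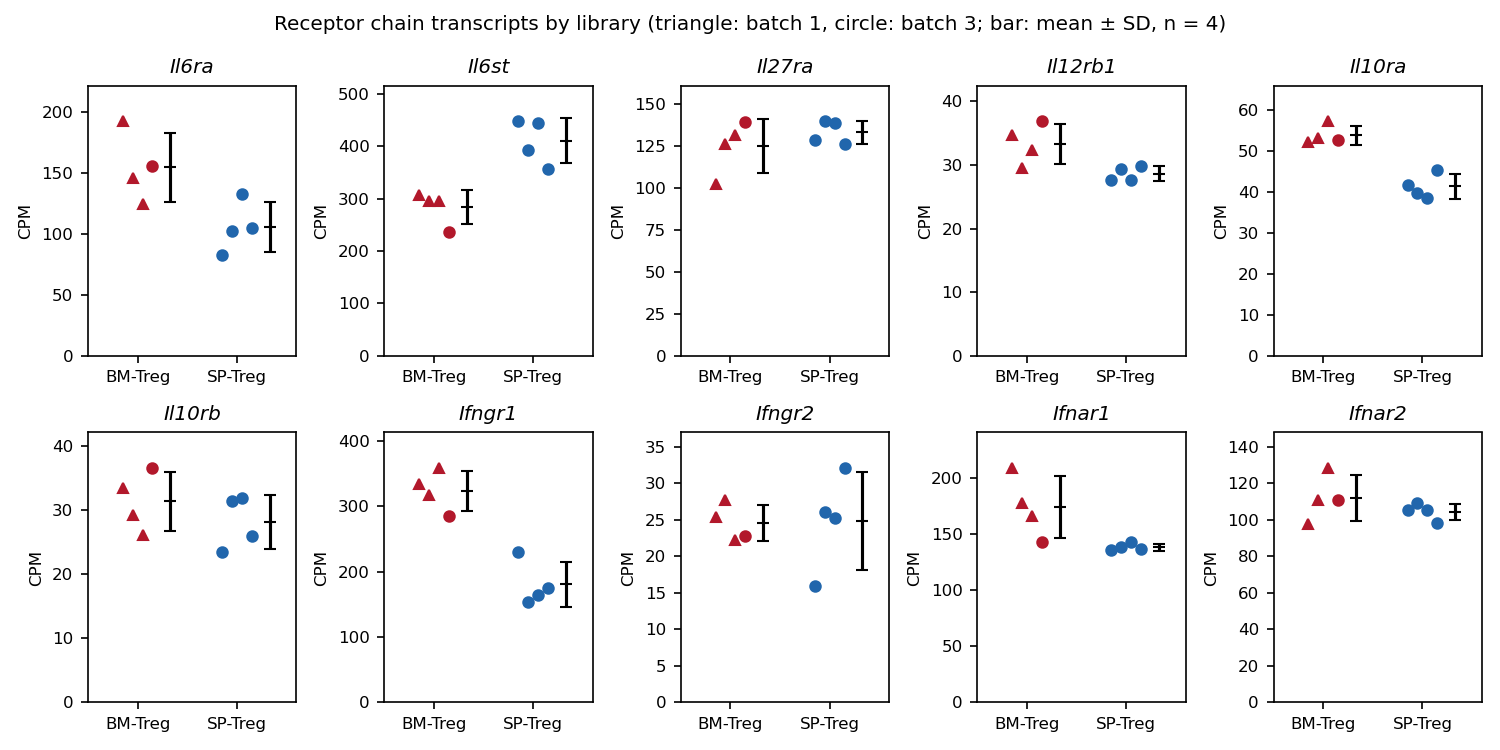
Abundance of the 10 receptor chains in CPM (vertical axes from 0) in each BM-Treg (red) and SP-Treg (blue) library, with the mean ± SD of each group of 4 in black; triangles are batch 1 and circles batch 3. Ifngr1 and Il10ra sit higher and Il6st lower in every BM-Treg library, whereas Ifnar1 is higher mainly in the batch 1 libraries.

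Ifngr1, the chain that binds interferon gamma (ENSMUSG00000020009, chr10:19591949-19610229), had the largest change. It was read at 334, 317, 359 and 285 CPM in BM-Treg replicates 1 to 4 and at 231, 154, 164 and 175 CPM in SP-Treg replicates 1 to 4. Every marrow library lay above every spleen library, and SP-Treg replicate 1 was the highest of the spleen. The log2 fold change was 0.84 ± 0.13 (SE, n = 4 per tissue), a 1.79-fold difference with a 95% interval of 1.48 to 2.17 and an edgeR adjusted p of 0.00142.

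The rise of Ifngr1 kept its direction within batch 3, where the log2 fold change was 0.66, but it no longer passed the test when batch was a term in the model (log2 fold change 0.66, edgeR adjusted p = 0.0911) or when only batch 3 was fitted (edgeR adjusted p = 0.192). These tests rest on 1 marrow library, which is assumed to vary like the others. Ifngr1 was called with each of the 8 libraries left out in turn, with adjusted p up to 0.00603.

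Ifngr2, the signalling partner of Ifngr1 (ENSMUSG00000022965, chr16:91547072-91565169), did not follow it. BM-Treg had 25.4, 27.6, 22.2 and 22.8 CPM and SP-Treg 16.0, 26.0, 25.2 and 32.1 CPM, with the marrow values inside the range of the spleen. The fold change was 0.99 with a 95% interval of 0.76 to 1.29 (log2 fold change -0.02 ± 0.18 SE, edgeR adjusted p = 0.969), and the batch 3 log2 fold change was -0.11. Its direction was undetermined, since the sign turned with the test, the filter or the library left out. Ratios of the chains per length, in FPKM, a count scaled to transcript length and depth, overlapped between the tissues, with Ifngr1 at 11.3 to 23.2 times Ifngr2 in BM-Treg and 6.56 to 19.5 times in SP-Treg.

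In the type I interferon receptor, Ifnar1 (ENSMUSG00000022967, chr16:91485238-91507441) was read at 209, 178, 167 and 143 CPM in BM-Treg and at 136, 139, 143 and 137 CPM in SP-Treg. The groups did not overlap, yet BM-Treg replicate 4 lay just above the highest spleen library and the 3 batch 1 libraries well above it. The fold change was 1.26 with a 95% interval of 1.07 to 1.48, and it did not pass the test (edgeR adjusted p = 0.0801). In batch 3 the log2 fold change was 0.05, whereas the mean log2 CPM of the 3 batch 1 libraries exceeded that of the spleen by 0.41. Without BM-Treg replicate 4 the adjusted p was 0.0313, and DESeq2 also called it, and for the batch 1 libraries, in which the difference lay, tissue and batch cannot be told apart.

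Its partner Ifnar2 (ENSMUSG00000022971, chr16:91372783-91405589) had 97.6, 111, 129 and 111 CPM in BM-Treg and 105, 109, 105 and 98.3 CPM in SP-Treg. The groups overlapped. The fold change was 1.07 with a 95% interval of 0.92 to 1.25 (edgeR adjusted p = 0.605), and the batch 3 log2 fold change was 0.09.

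The gp130 family held the only fall. Il6st, which encodes gp130 itself (ENSMUSG00000021756, chr13:112475008-112506860), was read at 307, 296, 295 and 237 CPM in BM-Treg and at 448, 394, 444 and 357 CPM in SP-Treg. All marrow libraries lay below all spleen libraries, and BM-Treg replicate 4, the one that shares batch and sex with the spleen, was the lowest. Il6st fell to 0.69-fold of its spleen level, with a 95% interval of 0.58 to 0.82 (log2 fold change -0.53 ± 0.11 SE, n = 4 per tissue, edgeR adjusted p = 0.00964). In batch 3 the log2 fold change was -0.79. With batch as a term Il6st was still called (edgeR adjusted p = 0.0359), as it was with each library left out, with adjusted p up to 0.0298. It was not called in limma on log2(FPKM + 1) or log2(FPKM + 0.1), nor in batch 3 alone (edgeR adjusted p = 0.112).

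Il6ra, the chain that binds IL-6 and presents it to gp130 (ENSMUSG00000027947, chr3:89869324-89913162), went the opposite way. BM-Treg had 192, 146, 125 and 156 CPM and SP-Treg 82.4, 103, 133 and 105 CPM. The groups overlapped by a single pair, since SP-Treg replicate 3 exceeded BM-Treg replicate 3. Il6ra rose 1.46-fold, with a 95% interval of 1.16 to 1.84 (log2 fold change 0.55 ± 0.15 SE, edgeR adjusted p = 0.0408), and the batch 3 log2 fold change was 0.57. The call is close to the threshold. It was lost without BM-Treg replicate 1, 2 or 4 or SP-Treg replicate 1, 2 or 4 (adjusted p up to 0.0936) and with batch as a term (edgeR adjusted p = 0.259). With the replicate number as a block it was lost too (edgeR adjusted p = 0.126), and the direction was the same throughout. That block is arbitrary for numbers 1 to 3, whose libraries differ in labelled sex between the tissues.

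Because Il6ra rose and Il6st fell, their ratio per length separated the tissues. In FPKM, Il6ra stood at 0.98, 0.77, 0.67 and 1.03 of Il6st in BM-Treg replicates 1 to 4 and at 0.29, 0.41, 0.47 and 0.46 in SP-Treg. No marrow library reached down to the spleen values, and BM-Treg replicate 4 had the highest ratio of all. The mean ratio, 0.86 ± 0.17 for BM-Treg and 0.41 ± 0.08 for SP-Treg (SD, n = 4 each), was 2.11 times as high in the marrow. Of the 6 ratios of partner chains examined this was the only one whose groups did not overlap, and no test was run on the ratios.

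Il27ra, which pairs with gp130 to receive IL-27 (ENSMUSG00000005465, chr8:84030287-84042575), had 103, 127, 132 and 140 CPM in BM-Treg and 129, 140, 139 and 126 CPM in SP-Treg, with the groups overlapping. The fold change was 0.94 with a 95% interval of 0.80 to 1.10 (edgeR adjusted p = 0.65), and the batch 3 log2 fold change, 0.07, had the opposite sign. Il12rb1, shared by the IL-12 and IL-23 receptors (ENSMUSG00000000791, chr8:70808449-70821424), had 34.7, 29.5, 32.4 and 36.9 CPM in BM-Treg and 27.6, 29.4, 27.6 and 29.9 CPM in SP-Treg. Only BM-Treg replicate 2 fell within the spleen range. Its fold change was 1.16 with a 95% interval of 0.98 to 1.38 (log2 fold change 0.22, edgeR adjusted p = 0.27), and the batch 3 log2 fold change was 0.37.

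In the IL-10 receptor, the ligand-binding chain Il10ra (ENSMUSG00000032089, chr9:45253837-45269149) was read at 52.0, 53.1, 57.2 and 52.7 CPM in BM-Treg and at 41.7, 39.7, 38.5 and 45.2 CPM in SP-Treg. Both groups were tight and did not overlap. Il10ra rose 1.30-fold, with a 95% interval of 1.12 to 1.52 (log2 fold change 0.38 ± 0.10 SE, n = 4 per tissue, edgeR adjusted p = 0.0344), and the batch 3 log2 fold change was 0.36. The call was lost without BM-Treg replicate 2 or 3 or SP-Treg replicate 2 or 3 (adjusted p up to 0.0938), with batch as a term (edgeR adjusted p = 0.26), with the replicate block (edgeR adjusted p = 0.0707) and on the FPKM scale, while the log2 fold change ran from 0.35 to 0.44 over all alternatives.

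The shared chain Il10rb (ENSMUSG00000022969, chr16:91406164-91425834) had 33.3, 29.2, 26.1 and 36.6 CPM in BM-Treg and 23.4, 31.3, 31.8 and 25.9 CPM in SP-Treg, with wide overlap. The fold change was 1.11 with a 95% interval of 0.90 to 1.37 (log2 fold change 0.15, edgeR adjusted p = 0.564), and the batch 3 log2 fold change was 0.39. The ratio of Il10ra to Il10rb in FPKM was 0.77 ± 0.09 for BM-Treg and 0.68 ± 0.14 for SP-Treg (SD, n = 4 each), and the groups overlapped. It takes in all transcripts of each gene, and most Il10rb counts went to transcripts other than the full coding one, as given further on.

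**Figure D2:**
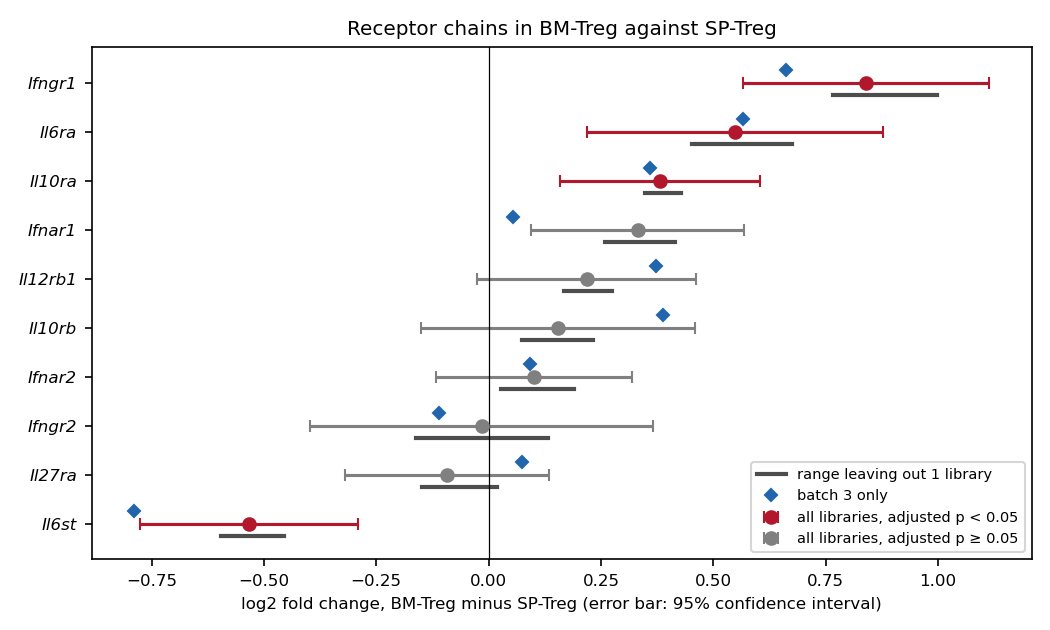
Log2 fold change (horizontal axis, BM-Treg minus SP-Treg) of each receptor chain with its 95% confidence interval, in red where the edgeR adjusted p was under 0.05. Grey bars under each point span the values with 1 library left out, and blue diamonds are the batch 3 fold changes, which lie close to the whole comparison for Il6ra and Il10ra and near 0 for Ifnar1 (0.05).

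Ifnar2, Il10rb, Ifnar1 and Ifngr2 are neighbours on chromosome 16, with 574 bases between the end of Ifnar2 and the start of Il10rb, 59403 between Il10rb and Ifnar1, and 39630 between Ifnar1 and Ifngr2. None of these 4 was called by edgeR, though Ifnar1 had an unadjusted p under 0.05 and was called by DESeq2. The 4 chains that were called lie on chromosomes 3, 9, 10 and 13. Ifnar2 and Il10rb are both overlapped on the same strand by a further gene, RP23-190G10.4, which was given 22.2 to 89.5 counts per library. Reads in a shared stretch could belong to either gene. Il27ra shares 9 bases with Palm3 on the opposite strand, and Il10ra contains Gm20612 on the opposite strand, which had at most 5 counts.

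Levels of different chains are compared per length. In BM-Treg, Ifngr1 was the most abundant at 218 ± 25.4 FPKM (SD, n = 4), above every other chain in every library, and Ifnar2 came next at 75.1 ± 7.87 FPKM. Il6st, Ifnar1, Il27ra and Il6ra followed with means of 56.8, 54.7, 49.5 and 48.4 FPKM, and neighbours among these 4 overlapped. Il10rb (20.9 FPKM) and Il10ra (16.1 FPKM) stood apart from each other, while Il10ra, Ifngr2 (13.7 FPKM) and Il12rb1 (12.2 FPKM) each overlapped the next.

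The order differed in SP-Treg. Ifngr1 was first at 115 ± 28.1 FPKM (SD, n = 4), but its range overlapped that of Il6st (78.3 ± 11.6 FPKM), which in turn overlapped Ifnar2 (61.7 FPKM). Il27ra (50.4 FPKM), Ifnar1 (42.1 FPKM) and Il6ra (31.3 FPKM) did not overlap their neighbours in the order. Il10rb, Ifngr2, Il10ra and Il12rb1 were the lowest, at 17.9, 12.6, 11.9 and 9.99 FPKM, and each overlapped the next. In both tissues the level of Ifngr1 exceeded that of over 96% of all genes tested.

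**Figure D3:**
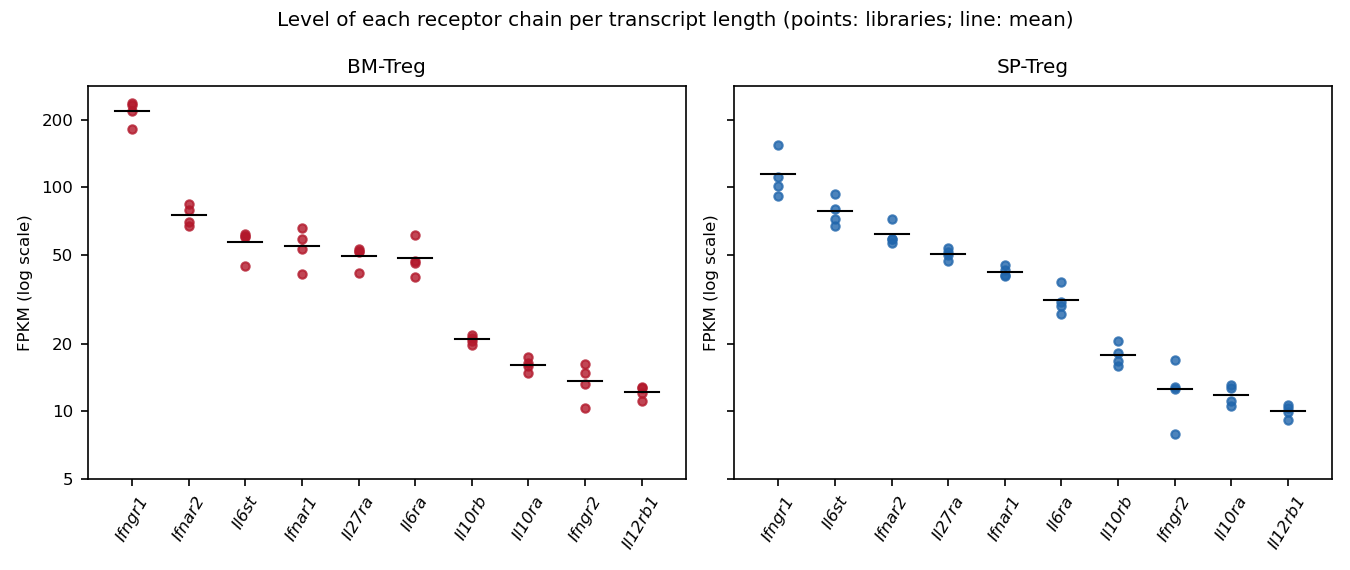
FPKM (vertical axes, log scale) of the 10 chains in each BM-Treg library (left) and SP-Treg library (right), ordered by mean, which is drawn as a line. Ifngr1 leads in both tissues, at 218 and 115 FPKM, and Il6st moves from the third rank in BM-Treg to the second in SP-Treg.

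The transcript tables held 31 transcripts of these genes, of which 25 passed the filter. By edgeR none of the 25 was called after adjustment over all 28756 transcripts tested, of which 0.146% were called (0.0626% as higher and 0.0835% as lower), although 8 had an unadjusted p under 0.05. Of 21 transcripts tested for their share of the gene, none was called (0.198% of all) and none had an unadjusted p under 0.05. With a stricter filter of at least 10 counts in every library, 3 Ifngr1 transcripts were called as higher in BM-Treg. Il6ra, Il6st, Il27ra and Il12rb1 have 1 transcript each in these tables.

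The shares themselves differed widely among the chains. For Ifngr1 the full coding transcript Ifngr1-201 took 84.0 ± 1.24% (SD, n = 4) of the gene's counts in BM-Treg and 85.1 ± 2.09% in SP-Treg, and most of the rest went to the retained-intron transcript Ifngr1-204. For Ifnar1 the coding Ifnar1-201 took 76.0% and 74.9%, and the retained-intron Ifnar1-205 took 21.5% and 21.8%. For Ifngr2 the coding Ifngr2-201 took 87.4% and 89.1%, and Ifngr2-202, a decay target, took the remainder.

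Ifnar2 was divided among the 3 forms whose junctions are given above. The long Ifnar2-201 held 35.0%, 36.9%, 34.2% and 44.5% of counts in BM-Treg and 36.1%, 51.4%, 37.6% and 32.8% in SP-Treg. The short Ifnar2-202 held 33.4%, 30.5%, 37.4% and 23.5% in BM-Treg and 40.5%, 26.2%, 41.5% and 40.4% in SP-Treg. In both tissues the library with the highest share of the long form had the lowest share of Ifnar2-202, and the tissues overlapped for both. The other short form, Ifnar2-203, held 21.1%, 20.6%, 18.9% and 25.0% in BM-Treg and 13.1%, 17.7%, 14.2% and 19.7% in SP-Treg, where only SP-Treg replicate 4 reached into the marrow range. Its own log2 fold change was 0.50 ± 0.17 (SE, edgeR adjusted p = 0.288).

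For Il10rb the full coding transcript took a minor share, with Il10rb-201 at 17.2 ± 8.11% (SD, n = 4) in BM-Treg and 17.1 ± 14.6% in SP-Treg, and it was listed at 0 in SP-Treg replicate 3. The decay target Il10rb-205 held 49.5 ± 8.65% and 46.3 ± 6.80%, and the retained-intron Il10rb-204 held 23.1 ± 1.57% and 27.5 ± 9.31%. For Il10ra the coding Il10ra-201 held 88.9%, 86.3%, 85.0% and 100% in BM-Treg and 90.5%, 68.8%, 62.4% and 100% in SP-Treg. The remainder was Il10ra-203, which was thus listed at 0 in replicate 4 of each tissue. RSEM divides single-end reads of 80 nt among transcripts by a model, and the error of that division is not in these values.

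**Figure D4:**
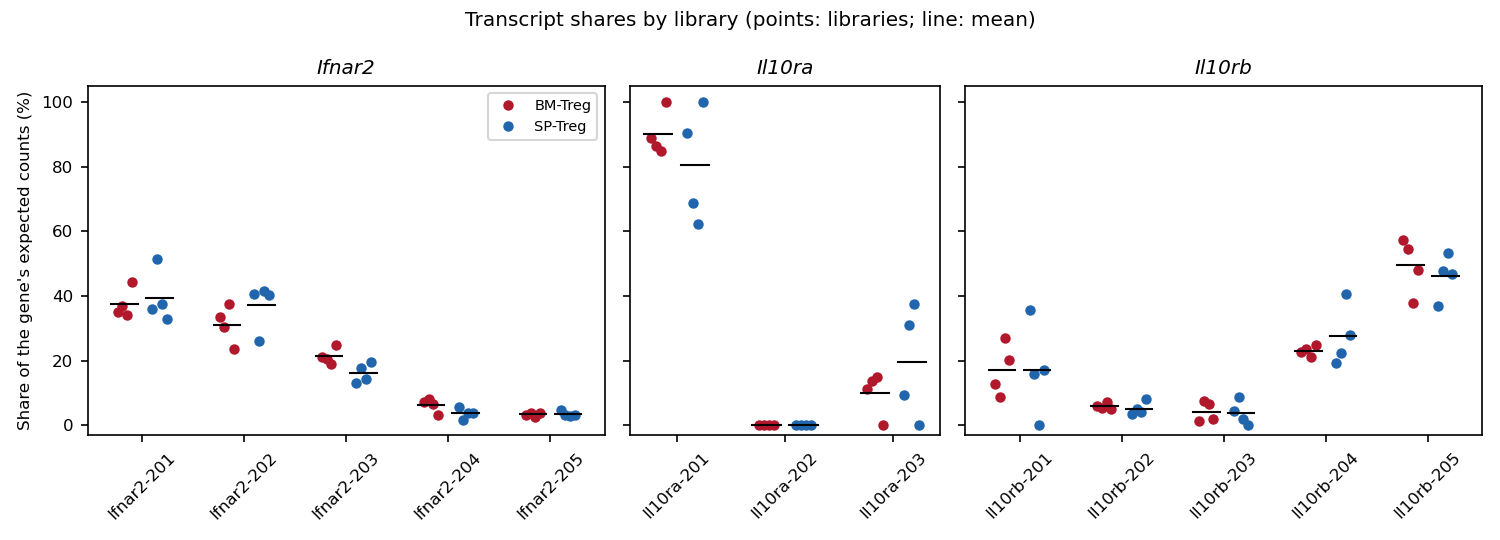
Share of each gene's expected counts (vertical axis, percent) given to each of its transcripts in every BM-Treg (red) and SP-Treg (blue) library, with the group mean as a line. Ifnar2 is split mainly among Ifnar2-201, Ifnar2-202 and Ifnar2-203, and Il10rb-205 holds the largest mean share of Il10rb in both tissues (49.5% and 46.3%).

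The other genes of these pathways were taken from lists by role. Over all genes tested, 3.72% were called as higher and 5.02% as lower in BM-Treg. Of 12 further receptor chains, 5 passed the filter and none was called by edgeR, DESeq2 or limma-voom or had an unadjusted p under 0.05; Il12rb2, the second IL-12 receptor chain, and Il11ra1, the IL-11 receptor, were the highest at 4.59 and 4.76 CPM in BM-Treg and 5.01 and 3.66 CPM in SP-Treg. Of 25 ligands, 7 passed the filter and 11 had no count in any library, which counting error alone allows for up to 3 counts per library, among them the type I interferons listed and Il27. Clcf1, a ligand of the gp130 family, rose in BM-Treg from 37.2 ± 2.48 to 54.9 ± 6.39 CPM (SD, n = 4; log2 fold change 0.56 ± 0.12 SE, edgeR adjusted p = 0.00822). Its call held with batch as a term (edgeR adjusted p = 0.028).

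Lif, which signals through gp130 and the LIF receptor, fell from 21.2 ± 11.5 to 5.18 ± 2.08 CPM (log2 fold change -2.03 ± 0.45 SE, edgeR adjusted p = 0.0261). That call was lost without BM-Treg replicate 1, 2 or 4 or SP-Treg replicate 3 (adjusted p up to 0.09) and with batch as a term (edgeR adjusted p = 0.325). Il10 varied by library, with a log2 fold change of -0.23 ± 0.49 (SE, edgeR adjusted p = 0.825).

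Among the Janus kinases and STATs, Jak1, which binds gp130 and both kinds of interferon receptor, was read at 622, 649, 644 and 592 CPM in BM-Treg and at 628, 607, 554 and 534 CPM in SP-Treg. The groups overlapped, with a log2 fold change of 0.11 ± 0.10 (SE, edgeR adjusted p = 0.543). Stat3, the main STAT of IL-6 and IL-10, had a log2 fold change of -0.17 ± 0.10 (SE, edgeR adjusted p = 0.335) and was named after its values were seen.

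Of 13 inhibitors of the pathway, 2 rose, 1 fell and 10 were not called, where 3.72% of all genes tested rose and 5.02% fell. Ptpn6, the phosphatase SHP-1, was read at 35.5, 43.0, 39.9 and 39.1 CPM in BM-Treg and at 79.2, 76.5, 57.5 and 70.6 CPM in SP-Treg. It was low in every marrow library and fell by 0.85 on the log2 scale (SE 0.12, edgeR adjusted p = 0.00105), with a batch 3 log2 fold change of -0.85. The model with a batch term did not call it (edgeR adjusted p = 0.0524). Pias3 and Pias4, SUMO ligases that bind STATs, rose by 0.88 ± 0.16 and 0.80 ± 0.14 (log2, SE; edgeR adjusted p = 0.00412 and 0.0033). With batch as a term Pias3 kept its call (edgeR adjusted p = 0.0292) and Pias4 lost it (edgeR adjusted p = 0.144). Cish and Ptpn1, the most abundant inhibitors, were not called (edgeR adjusted p = 0.499 and 0.0693). Of 4 sheddase genes, none was called by edgeR, DESeq2 or limma-voom or had an unadjusted p under 0.05; Adam17, which cleaves the IL-6 receptor, had 90.3 ± 9.50 CPM in the marrow and 101 ± 11.2 CPM in the spleen, and Adam10 had 78.7 ± 8.27 and 95.6 ± 19.5 CPM (SD, n = 4).

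Of 27 interferon-induced genes, all of which were tested, 8 were lower and 1 was higher in BM-Treg, where Ifngr1 was higher. Of all genes tested, 5.02% were lower and 3.72% higher. The median log2 fold change of the list was -0.33, against -0.01 over all genes. The genes that fell were Iigp1, Igtp, Gbp3 and Irgm2 and, completing the count, Gbp2, Irgm1, Gbp6 and Irf1. All but Irf1, a transcription factor, are GTPases of the guanylate-binding and immunity-related families, which are known for their induction by interferon gamma and their action against intracellular pathogens. Of the 8 such GTPases on the list 7 fell, and Gbp7, the most abundant at 457 and 513 CPM, had a log2 fold change of -0.17 ± 0.12 (SE, edgeR adjusted p = 0.433); this grouping was made after the values were seen.

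Iigp1 was read at 75.2, 85.1, 114 and 51.8 CPM in BM-Treg and at 205, 206, 174 and 190 CPM in SP-Treg. The groups lay far apart, and BM-Treg replicate 4 was again the lowest. Iigp1 fell by 1.25 on the log2 scale (SE 0.19, edgeR adjusted p = 0.00325) and was called under every alternative, with adjusted p up to 0.0195. Igtp fell by 0.75 (SE 0.12, edgeR adjusted p = 0.00163), from 436, 497, 493 and 491 CPM in SP-Treg to 263, 289, 346 and 240 CPM in BM-Treg.

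In the model with batch as a term, 3 of the 8 were called (Iigp1, Igtp and Gbp3, edgeR adjusted p = 0.00259, 0.0227 and 0.0491). Of all 13397 genes tested, that model called 147 as lower. All 8 GTPases had batch 3 log2 fold changes below 0, as did 23 of the 27 genes. These values rest on 1 marrow library and the spleen libraries, all part of the main fit, so they are no separate check. The median over all genes in the filtered fit of batch 3 alone was -0.02. Without BM-Treg replicate 1 the number that were lower was 4. Of the 8 fits with 1 library left out, 2 called Gbp6 (edgeR adjusted p up to 0.116) and 1 called Irf1 (edgeR adjusted p up to 0.128). Gbp2 and Irgm1 were each lost in 1 of these fits, and Iigp1, Igtp, Gbp3 and Irgm2 in none. The groups overlapped for Gbp6. The gene that rose, Ifit3, belongs to those induced by type I interferon and had a log2 fold change of 0.89 ± 0.23 (SE, edgeR adjusted p = 0.0271), lost with batch as a term (edgeR adjusted p = 0.392) and without BM-Treg replicate 3 or SP-Treg replicate 1, 2 or 4 (adjusted p up to 0.107).

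**Figure D5:**
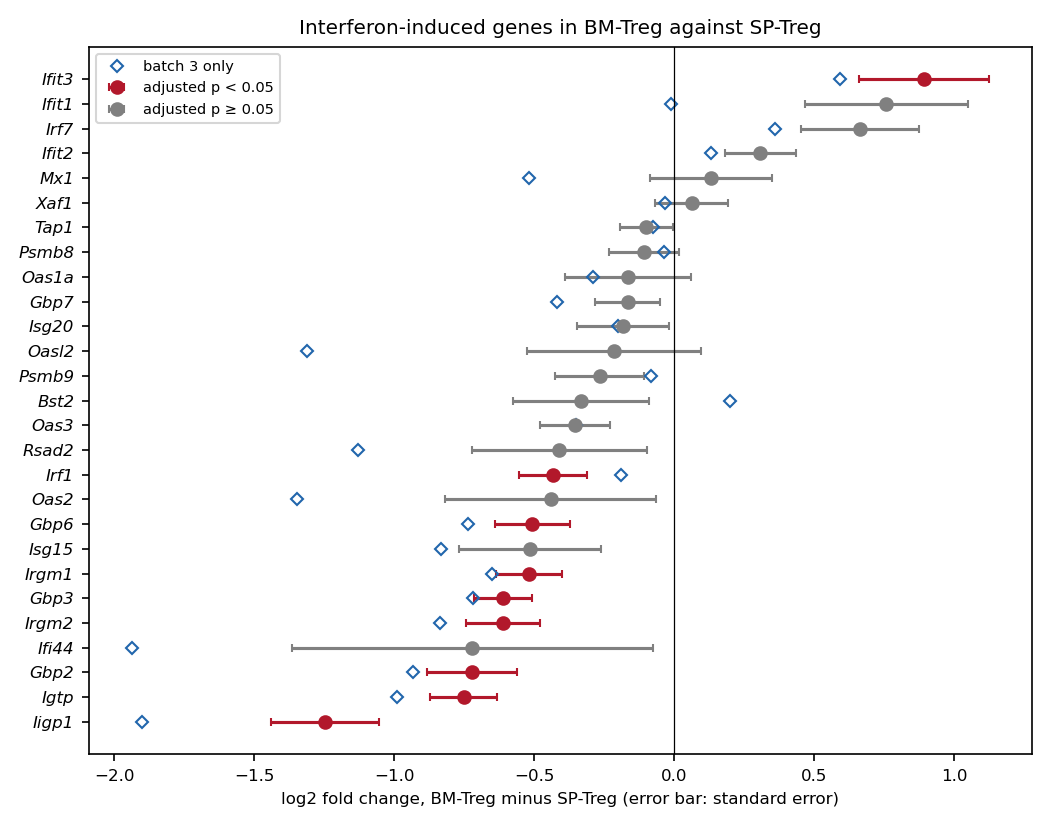
Log2 fold change (horizontal axis, BM-Treg minus SP-Treg) of the 27 interferon-induced genes with its standard error, in red where the edgeR adjusted p was under 0.05; open diamonds are the batch 3 fold changes. The 8 genes that were lower include 7 GTPases, led by Iigp1 at -1.25, and Ifit3 is the single gene that was higher.

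Of 12 STAT3 targets, 11 were tested, 2 rose and 2 fell, where 3.72% of all genes tested rose and 5.02% fell. Junb, an AP-1 subunit, rose by 1.31 ± 0.28 (log2, SE; edgeR adjusted p = 0.0216) and Pim1, a kinase, by 0.75 ± 0.14 (edgeR adjusted p = 0.00451). Myc had a log2 fold change of -1.04 ± 0.26 (edgeR adjusted p = 0.0413) and Batf, an AP-1 family factor, -0.56 ± 0.16 (edgeR adjusted p = 0.0483). With batch as a term none of these 4 was called (adjusted p of 0.133 to 0.303). Junb was also lost without BM-Treg replicate 4 or SP-Treg replicate 3, Myc without any library but SP-Treg replicates 1 and 2, and Batf without any but replicate 3 of each tissue. Mcl1 and Maf, the most abundant of the list, were not called (edgeR adjusted p = 0.534 and 0.133).

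Other cells in a sort also carry these receptors, so the markers of such cells are given here. The summed CPM of 10 monocyte markers was 153 to 272 in BM-Treg and 106 to 182 in SP-Treg, mostly from Ccr2 and Itgam, whereas Cd14 and Fcgr1 were near 0. The 12 neutrophil markers summed to 1.32 to 11.1 and 0.216 to 21.3 CPM, with Ly6g at 0 in every library. The 6 plasmacytoid dendritic cell markers summed to 30.1 to 40.9 and 8.78 to 42.1 CPM, nearly all from Ccr9, and the 8 B cell markers to 11.7 to 16.0 and 8.34 to 113 CPM.

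The 8 erythroid markers summed to 14.4 to 34.0 CPM in BM-Treg, 2.01 CPM in SP-Treg replicate 1 and 194 to 479 CPM in the other 3 spleen libraries. The 6 CD8 T cell and natural killer cell markers summed to 10.9 to 12.9 CPM in BM-Treg and 14.0 to 45.7 CPM in SP-Treg, the only list whose groups did not overlap. Ifngr1 was highest and Ifngr2 lowest of the spleen in SP-Treg replicate 1, where the sums of all these lists but that of the monocytes were lowest among the spleen libraries. The part of these cells in the receptor values was not tested.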

How the data were processed

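RNA of sorted FoxP3+ cells from bone marrow (n = 4) and spleen (n = 4) was amplified by SPIA (NuGen) and sequenced single-end at 80 nt by the authors. Per the submitters' processing notes, reads passed through cutadapt 1.9, STAR 2.5.2a and RSEM 1.2.30 on GRCm38. The annotation release and read strandedness are not given in the sources used here. The deposited tables hold the authors' expected counts and their FPKM, per gene and per transcript, for every library separately. Samples were grouped by the tissue label.

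Expected counts were rounded and fitted over all genes in edgeR 4.0.16 (R 4.3.3; TMM scaling, filterByExpr, robust quasi-likelihood F test, Benjamini-Hochberg adjustment, threshold 0.05), with 13397 genes tested. The paper names no test for these data. Standard errors are the absolute log2 fold change over the square root of F. CPM used TMM library sizes. FPKM served for levels and ratios of chains. Transcripts were fitted likewise, and their shares with diffSpliceDGE. Alternatives used limma 3.58.1 and DESeq2 1.42.0. Scripts were tested on simulated data. No replicate pair agreed within sampling noise (lowest chi-square per degree of freedom 14.2). Depth limits precision, and without molecular identifiers counts are not independent molecules.

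Transcript names, junctions and types came from GENCODE M21, in which all 10 genes overlap the deposited coordinates and 6 have the same ones. The named genes were all 10 chains, the called genes of each pathway list (at most 4 with the smallest p in each direction), its 2 genes of highest mean CPM, the 3 genes most alike to each chain, and transcripts with at least 10% of their gene. The chains, lists and tests were chosen with earlier results of these data known. Some genes that these rules select are not reported here.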

Additional observations from a re-analysis of the deposited data

Results flagged for a closer look

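Of 98 groups of 4 libraries examined for a library far from the others, 3 held such a library, and chance gives about 5% of such groups. Igtp was read at 436 CPM in SP-Treg replicate 1, apart from 491 to 497 CPM in the other 3 spleen libraries. The FPKM ratio of Ifngr1 to Ifngr2 was 19.5 in SP-Treg replicate 1 and 6.56 to 8.09 in the other 3. Ifnar2-202 held 26.2% of Ifnar2 counts in SP-Treg replicate 2 and 40.4% to 41.5% in the others.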

How the results depend on the processing

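Each count is given first as in the report. For all genes called (1172; 499 higher, 673 lower), the counts were 765 on log2(FPKM + 1) and 728 on log2(FPKM + 0.1), with 283 and 274 lower. They were 258 (111 and 147) with batch as a term, 79 (26 and 53) in batch 3 alone, 427 (163 and 264) at a threshold of 0.01, and DESeq2 called 1703, with 781 higher. Leaving out 1 library gave 690 to 1048, with 297 to 425 higher and 393 to 639 lower. The share of higher calls was 42.6%, and 63.0% and 62.4% on the FPKM scales. Of the receptor chains, 3 were higher, but 0 with batch as a term and in batch 3 alone, 1 with the replicate block, 1 at 0.01 and 1 to 3 with 1 library left out. The chain that was lower was lost (0) on both FPKM scales and in batch 3 alone, and kept (1) with each library left out. The 19 called pathway genes became 12 on log2(FPKM + 0.1), 7 with batch as a term, 3 in batch 3 alone, 8 at 0.01 and 12 to 17 with 1 library left out; alternatives for these lists were chosen after seeing the data. Interferon-induced genes that were lower (8) became 4 and 3 on the FPKM scales, 3 with batch as a term, 1 in batch 3 alone, 3 at 0.01 and 4 to 7 with 1 library left out. Those that were higher (1) became 3 in DESeq2, 2 on both FPKM scales, 2 with no filter, 2 with at least 10 counts, 2 with the block, 0 with batch as a term, in batch 3 alone and at 0.01, and 0 to 2 with 1 library left out. Transcripts of the chains called as higher (0) became 3 with at least 10 counts in every library and 0 to 1 with 1 library left out, and those called as lower stayed at 0. Apart from settings that drop libraries, the cause of these shifts was not tested.

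Signs turned for values that were not called. Il27ra was at 0.067 with batch as a term, 0.086 in the filtered fit of batch 3 alone, and ran from -0.149 to 0.019 with 1 library left out, the latter without BM-Treg replicate 1. Ifngr2 was at 0.031 in limma-voom, 0.134 and 0.146 on the FPKM scales, 0.004 with no filter, 0.013 with at least 10 counts, 0.018 with the block, and -0.162 to 0.133 with 1 library left out, above 0 without BM-Treg replicate 3 or 4 or SP-Treg replicate 2 or 4. With batch as a term Il10rb-204 (0.217) and Ifnar1-205 (-0.248) turned. With 1 library left out, the transcripts that turned ranged from -0.303 to 0.205 for Il10rb-204, -0.157 to 0.772 for Il10rb-201, -0.18 to 0.098 for Ifngr2-201, -0.26 to 0.345 for Ifngr2-202 and -0.089 to 0.211 for Ifnar2-201.

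The shared replicate numbers did not pair the samples. By the labels, libraries numbered 1 to 3 differ in sex and batch between the tissues, so they cannot come from the same animals. The block on replicate number is arbitrary for them. Deviations of same-numbered libraries correlated at -0.107, 0.0574, -0.179 and 0.0491, and 2 of the 4 numbers had their own as best match. With the replicate number as a block 948 genes were called, and the chains called were Ifngr1 (edgeR adjusted p = 0.00336) and Il6st (edgeR adjusted p = 0.00982).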

Other observations

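Among 8562 genes whose mean log2 CPM was 3 or more, those whose log2 CPM most resembled that of a chain over the 8 libraries included Ptger1 and Rps6ka1 for Ifngr1 (Pearson r of 0.978 and 0.975) and Aldh18a1, Larp4 and Chd1 for Il6st (0.987, 0.982 and 0.982). For Il6ra they were Krba1, Hist2h3c2 and Hist1h2bm (0.988, 0.982 and 0.975), and for Il10ra they were Pim1, Cirbp and Zmat5 (0.982, 0.974 and 0.974). The libraries share tissue, batch and depth, so these values describe likeness in these 8 libraries only. Pim1, also on the STAT3 target list, had 191, 228, 256 and 209 CPM in BM-Treg and 124, 123, 108 and 172 CPM in SP-Treg, with every marrow library above every spleen library.

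For the other chains the closest genes included Coq5, Cd3e and BC023829 for Il27ra, Chst10 and Tmem192 for Il12rb1, Phf21a, Msto1 and F2rl2 for Il10rb, Wdfy1, Creb3 and Cdk5rap3 for Ifngr2, Ikzf5, Hsd17b7 and Orai2 for Ifnar1, and Arf1, Gaa and Emc10 for Ifnar2, with r from 0.899 to 0.966.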
